A study of Mus musculus with 12 samples.

Results

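Malat1 and Neat1 are neighbouring genes of mouse chromosome 19 whose products are long non-coding RNAs that stay in the nucleus. Every row of the deposited lncRNA count table whose Ensembl transcript belongs to either gene in the GENCODE M21 annotation was taken. These were 7 of 48033 rows, 4 of Malat1 and 3 of Neat1, and the rows of each gene were also summed, which gave 2 of 22115 genes and assembled loci. The rule used names alone and no measured value.

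RNA sequencing was performed on the hippocampus and the cerebral cortex of 5 × FAD mice and non-transgenic WT mice, all on the C57BL/6J background and 7 months old. The 5 × FAD mouse carries human transgenes with familial Alzheimer's disease mutations, and develops amyloid plaques and gliosis. There were 3 libraries in each of the 4 groups, hippocampus WT, hippocampus 5 × FAD, cortex WT and cortex 5 × FAD, and each mouse gave both regions. The tissue was bulk tissue, in which fewer cells of a type and less RNA per cell cannot be told apart. The 3 libraries of a group come from separate mice, and p-values measure only the spread between these few samples.

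Malat1 RNA gathers in nuclear speckles, where splicing factors are stored. The long form of Neat1 is the scaffold of paraspeckles, nuclear bodies built on it by RNA-binding proteins such as SFPQ, NONO and PSPC1, whereas the short form shares its 5′ end and is not able to build them. Long Neat1 and Malat1 have no ordinary poly(A) tail: RNase P cuts each RNA before a small tRNA-like RNA, and the new end folds into a triple helix of U-rich and A-rich tracts that protects it. Both genes are expressed in neurons and glia.

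On GRCm38, Malat1 (ENSMUSG00000092341) lies at chr19:5795690-5802672 on the minus strand and Neat1 (ENSMUSG00000092274) at chr19:5824708-5845478 on the same strand, with 22035 bases between them. Malat1-201 (ENSMUST00000172812) and Neat1-201 (ENSMUST00000173672) are unspliced transcripts of 1 exon that span their whole gene, 6983 and 20771 bases long. Malat1-202, Malat1-203 and Malat1-204 are spliced transcripts of 556, 485 and 656 bases with 2 exons each. Neat1-202, 3004 bases long with 2 exons, and Neat1-203, 1030 bases with 4 exons, lie in the 5′ part of the gene. All rows are of non-coding transcripts, so no coding exon or UTR is annotated in them. An eighth annotated transcript, Neat1-204, was not analysed here.

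**Figure D1:**
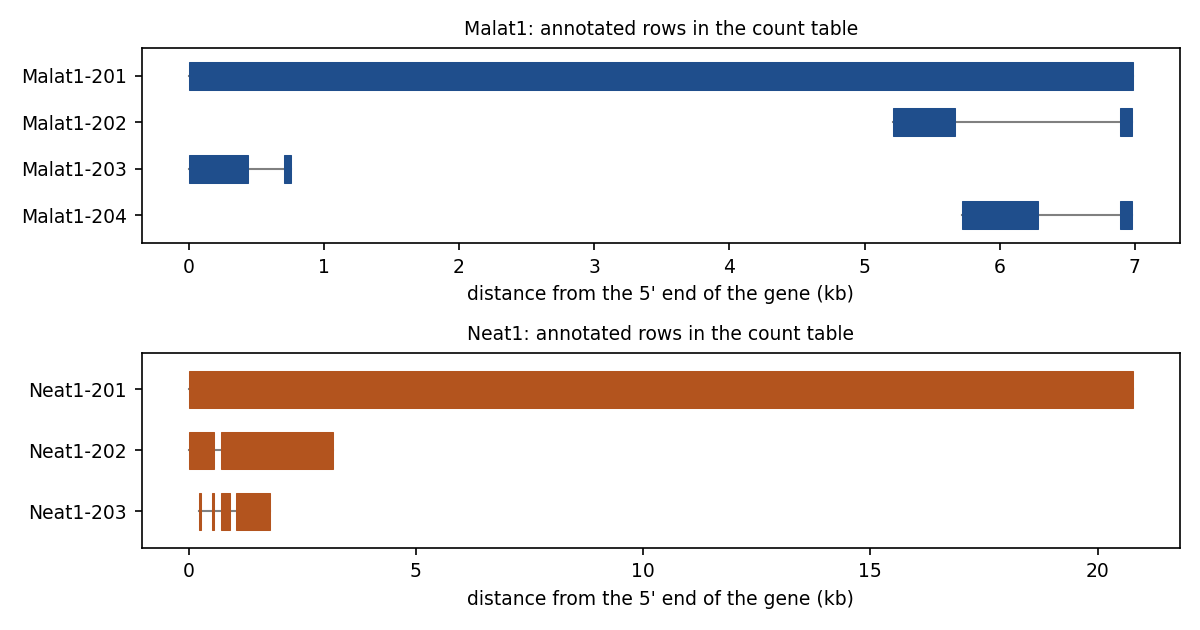
The annotated exons (boxes) and introns (lines) of the 7 rows are drawn against the distance in kb from the 5′ end of the gene, with a separate scale for Malat1 (top) and Neat1 (bottom). Malat1-201 and Neat1-201 cover the whole gene, so every exon of a spliced row lies within the unspliced row of the same gene.

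The 3′ ends that RNase P makes are the feature that the 2 RNAs share. The 110 bases before the tRNA-like RNA are given for each gene (GENCODE M21 on GRCm38, minus strand, 5′ to 3′), with the runs that occur in both stretches in capitals. The Malat1 stretch is chr19:5795982-5796091, directly before Mascrna, and the Neat1 stretch is chr19:5824708-5824817, the last bases of Neat1-201, directly before Gm27702.
Malat1: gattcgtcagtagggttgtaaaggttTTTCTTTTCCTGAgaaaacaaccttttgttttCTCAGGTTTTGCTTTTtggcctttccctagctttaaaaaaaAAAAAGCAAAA
Neat1: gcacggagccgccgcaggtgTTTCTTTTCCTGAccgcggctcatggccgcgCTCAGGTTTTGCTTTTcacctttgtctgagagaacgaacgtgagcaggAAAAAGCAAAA
The 13-base run and the 16-base run are the U-rich tracts, and the 11-base run is the A-rich end, which finishes at the last base before the small RNA in both genes. The longest run of A is 12 bases in the Malat1 stretch and 5 in the Neat1 stretch. The base composition of the full transcripts is also unlike, with 42.5% G and C in Malat1-201 and 47.3% in Neat1-201.

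The annotated end of the short Neat1 form is of the other kind. The last 60 bases of Neat1-202, chr19:5842307-5842366, and of Malat1-201, chr19:5795690-5795749, are shown with the polyadenylation hexamer AATAAA in capitals, on the transcript strand alone.
Neat1-202: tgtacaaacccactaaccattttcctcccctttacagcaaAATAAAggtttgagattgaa
Malat1-201: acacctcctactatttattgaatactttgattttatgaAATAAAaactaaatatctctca
The hexamer begins 20 and 22 bases before the respective end, and there were 0 copies in the last 60 bases of Neat1-201. Mascrna ends 234 bases before the annotated end of Malat1-201, so that row includes the small RNA and the sequence after it.

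The junctions of the spliced rows are shown because they are nearly all that separates these rows from the unspliced ones. Each 30-base sequence has the bases before the junction in lower case and those after it in capitals.
Malat1-202: aaatgaggacaacagGTTATGCCCAATTCG
Malat1-203: tagtttgaaaatgagGTTAGGCTAGTATTT
Malat1-204: catatcggtttcaagGTTATGCCCAATTCG
Neat1-202: ctctggcccagggtgATAGCAGTGCCCTCT
The introns spliced out are 1218, 271, 603 and 166 bases long. Malat1-202 and Malat1-204 use the same acceptor, after Mascrna, so that their introns contain the small RNA. The Neat1-202 junction also occurs in Neat1-203. Between 91.4% and 99.0% of the 31-base windows of a spliced row occur in the unspliced row of the gene too. Of the windows of Malat1-202, Malat1-203 and Malat1-204, 25, 26 and 26 are found in no other annotated transcript of the gene. That number is 57 for Neat1-203 and 0 for Neat1-202. How the reads that fit several rows were divided is not given in the sources used here, so the split within a gene is uncertain and the sum per gene is the main value.

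The libraries held 3517967 to 5014389 counts in the lncRNA table. Values are given as CPM, the counts of a feature brought to a common library size within that table, with TMM scaling. Tests between groups were made with the quasi-likelihood model of edgeR, and a feature was called at a p under 0.05 after Benjamini-Hochberg adjustment over all features tested. Of the region markers, 3 of 3 tested hippocampus genes were higher in hippocampus and 4 of 6 tested cortex genes were lower (Zbtb20, a hippocampal transcription factor, log2 fold change 1.63, adjusted p = 2.52e-05). The sex-linked genes went against the description of 2 females and 1 male per group. Xist had 30468 to 46630 counts in replicates 1 and 2 of both 5 × FAD groups and 4 to 25 in the other 8 libraries, and the Y-linked genes were at 0 counts in those 4 libraries and at 1074 to 1661 in the others. No WT library therefore had the female pattern, and sex and genotype are partly confounded, so results are also given without those 4 libraries. Whether the description of the sexes or the sample labels are in error was not tested.

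Malat1 had the most counts of all genes of the lncRNA table in all 12 libraries, and its level was much the same in the 4 groups. In hippocampus WT, the summed Malat1 rows stood at 81693, 80676 and 74295 CPM in replicates 1, 2 and 3. In hippocampus 5 × FAD they stood at 93038, 82733 and 76560 CPM. Only replicate 1 was above the WT libraries by more than their own range, and the groups overlapped. In cortex WT, Malat1 stood at 68482, 73929 and 75587 CPM, and in cortex 5 × FAD at 76777, 75790 and 75127 CPM. The lowest 5 × FAD value lay under the highest WT value, so these groups overlapped as well.

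The group means of Malat1 were, in order, 84110 ± 8325 CPM in hippocampus 5 × FAD, 78888 ± 4010 in hippocampus WT, 75898 ± 831 in cortex 5 × FAD and 72666 ± 3717 in cortex WT (SD, n = 3). Neighbouring groups in this order all overlapped. Malat1 took 7.76% of the counts that a library had in the lncRNA table on average. Transcripts outside that table are not part of this share.

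Neat1 stood at a far lower level, and it was the gene of the pair whose 5 × FAD libraries lay above the WT libraries in both regions. In hippocampus WT, the summed Neat1 rows stood at 733, 771 and 812 CPM, and in hippocampus 5 × FAD at 851, 1075 and 982 CPM. Each 5 × FAD library was above each WT library there. In cortex WT, Neat1 stood at 713, 720 and 535 CPM, and in cortex 5 × FAD at 937, 876 and 756 CPM. These groups did not overlap either, and cortex WT replicate 3, with 1874 raw counts against 3032 and 3339, was the lowest of the 12 libraries.

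Such separation without overlap, with 5 × FAD above WT, was seen in 7.35% of the gene sums tested in hippocampus and in 6.55% of those tested in cortex. It was seen in both regions for 0.638% of the gene sums tested in both, 70 of 10970. Shares of all counts in the lncRNA table, with no scaling between libraries, were also compared. Neat1 was at 0.0705 to 0.0802% in hippocampus WT and 0.0861 to 0.105% in hippocampus 5 × FAD. In cortex it was at 0.0533 to 0.0734% in WT and 0.0763 to 0.0948% in 5 × FAD. The separation was thus present before TMM scaling.

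**Figure D2:**
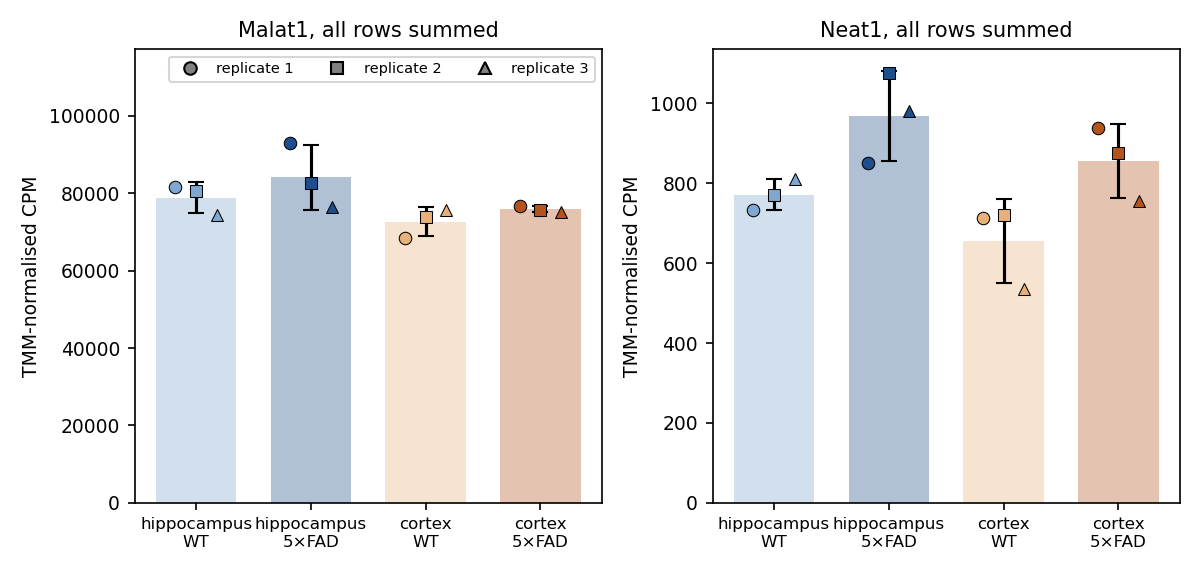
TMM-normalised CPM of the summed Malat1 rows (left) and Neat1 rows (right) is plotted for the 4 groups, with 1 point per library, circle, square and triangle for replicates 1, 2 and 3, bars for the mean and error bars for the SD (n = 3). The Malat1 groups overlap, whereas the Neat1 points of 5 × FAD (851 to 1075 CPM in hippocampus, 756 to 937 in cortex) all lie above those of WT from the same region.

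By group mean, Neat1 was at 969 ± 112 CPM in hippocampus 5 × FAD, 857 ± 92.1 in cortex 5 × FAD, 772 ± 39.5 in hippocampus WT and 656 ± 105 in cortex WT (SD, n = 3). The first and second groups of this order overlapped, as did the second and the third. The lowest hippocampus WT library, at 733 CPM, was above the highest cortex WT library, at 720 CPM, a separation that 13.1% of gene sums showed in the same direction. The coefficient of variation within a group was 5.12 to 16.0% for Neat1 and 1.09 to 9.90% for Malat1.

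Neither gene passed the test between genotypes. In hippocampus, Neat1 had a log2 fold change of 0.35 (SE 0.156, 95% confidence interval -0.01 to 0.72), 1.28-fold, with an adjusted p of 0.579 in edgeR. In cortex, its log2 fold change was 0.38 (SE 0.166, interval -0.01 to 0.77), 1.30-fold, with an adjusted p of 0.739. The unadjusted p-values, 0.0556 and 0.0548 in edgeR, were also above 0.05. Malat1 had a log2 fold change of 0.12 (SE 0.157, interval -0.25 to 0.49, adjusted p = 0.838) in hippocampus and 0.06 (SE 0.145, interval -0.28 to 0.40, adjusted p = 0.962) in cortex by the same test. The intervals of Malat1 leave room for changes of either sign, and single libraries moved the values. In hippocampus Malat1 was at 0.04 without 5 × FAD replicate 1, 0.07 without WT replicate 3 and 0.18 without 5 × FAD replicate 3, and in cortex at 0.02 without WT replicate 1.

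Few genes passed at this sample size. In hippocampus 6 of 11345 gene sums were called (0.0529%), and in cortex 2 of 11409 (0.0175%). At an unadjusted p under 0.05 there were 985 and 762. Among single rows, 0.0183% were called in hippocampus and 0.0545% in cortex. Over the 6 contrasts made here, 0 of 54 tests of the members, 9 per contrast, were called in edgeR, 3 had an unadjusted p under 0.05, and DESeq2 called 0.

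When the hippocampus and cortex counts of the same genotype and number were added, a step chosen after the data were seen, the log2 fold change of Neat1 was 0.36 (SE 0.0961, interval 0.13 to 0.58). Its unadjusted p was 0.00702 and its adjusted p 0.439 in edgeR, where 0.118% of gene sums were called. With each number left out in turn, the adjusted p ranged from 0.229 to 0.760. Malat1 was at 0.08 (SE 0.101, interval -0.15 to 0.32, adjusted p = 0.829). Without the female-pattern libraries, which left 1 added sample of 5 × FAD, the log2 fold change was 0.27 for Neat1 and 0.0071 for Malat1. The labels do not say whether libraries with the same number came from 1 mouse.

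With all libraries, the log2 fold change of Neat1 between genotypes was 0.35 in hippocampus and 0.38 in cortex. It was also fitted without the libraries of the female pattern, 5 × FAD replicates 1 and 2. Without them 1 library of 5 × FAD was left per region, which was assumed to vary like WT. The log2 fold change of Neat1 was then 0.37 (SE 0.127) in hippocampus, and its adjusted p of 0.354 was the lowest in a range of 0.354 to 0.906 over its alternatives in edgeR and DESeq2. In cortex it was 0.20 (SE 0.251), with an adjusted p of 0.906 in edgeR in a range of 0.698 to 0.912, so that the cortex value was smaller by over 1.5 times. Leaving out cortex WT replicate 3 alone also lowered the cortex value, to 0.25. Malat1 without the female-pattern libraries was at -0.02 in hippocampus and 0.04 in cortex. The part that sex has in these values cannot be told apart from genotype.

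**Figure D3:**
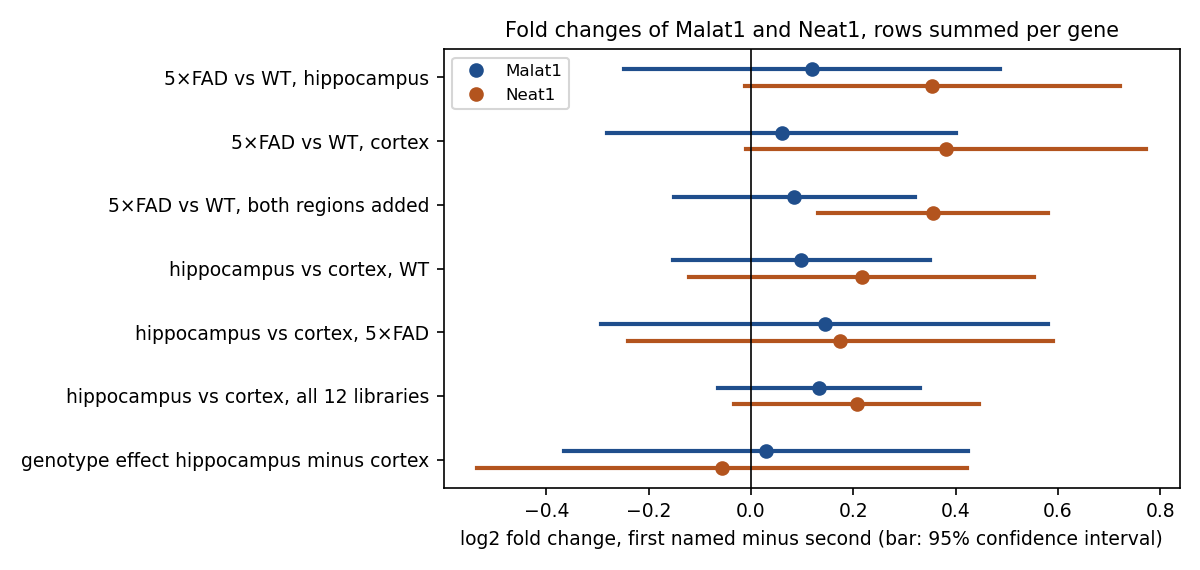
Log2 fold changes of the summed Malat1 rows (blue) and Neat1 rows (orange) from edgeR are plotted as points with 95% confidence intervals as bars. The 6 contrasts are shown, and both regions added, a step chosen after the data were seen. Sex and genotype are partly confounded in these values. The Neat1 intervals between genotypes reach just below 0 in each region (-0.01) and lie above 0 with both regions added (0.13 to 0.58), while each Malat1 interval spans 0.

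Between the regions, both genes had somewhat higher values in hippocampus, and neither passed the test. Over all 12 libraries, the log2 fold change of hippocampus over cortex was 0.13 for Malat1 (SE 0.0900, interval -0.06 to 0.33, adjusted p = 0.474 in edgeR) and 0.21 for Neat1 (SE 0.109, interval -0.03 to 0.45, adjusted p = 0.339). In this contrast 6.82% of the gene sums and 2.55% of the single rows were called. Within WT the values were 0.10 for Malat1 and 0.22 for Neat1, and within 5 × FAD 0.14 and 0.18. Called were 3.5% of gene sums and 0.986% of rows in WT, and 0.193% and 0.0182% in 5 × FAD. The adjusted p-values of these contrasts in edgeR were 0.504 to 0.802. Single libraries bore on these values. Neat1 within WT was at 0.10 without cortex WT replicate 3, and within 5 × FAD it was at 0.10 without hippocampus replicate 2, 0.09 without cortex replicate 3 and 0.26 without hippocampus replicate 1. Malat1 was at 0.08 over all libraries and 0.07 within 5 × FAD without hippocampus 5 × FAD replicate 1, and at 0.06 within WT without cortex WT replicate 1.

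The genotype effect was not found to differ between the regions. The difference, hippocampus minus cortex, was -0.06 on the log2 scale for Neat1 (SE 0.218, interval -0.53 to 0.42, adjusted p = 0.977 in edgeR) and 0.03 for Malat1 (SE 0.180, interval -0.37 to 0.42, adjusted p = 0.988). Of all 12109 gene sums, edgeR called 0 (0%) in this contrast, 848 had an unadjusted p under 0.05, and DESeq2 called 22. Of the single rows 0.00812% were called.

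The levels of the 2 RNAs can be set against each other only per length. Malat1-201 was at a mean of 12039 CPM per kb in hippocampus 5 × FAD, 11288 in hippocampus WT, 10863 in cortex 5 × FAD and 10399 in cortex WT. Neat1-201 was at 45.6, 36.5, 40.3 and 30.8 CPM per kb in the same groups. Any reads of the short form that were counted in this row are part of these values. The ratio of Malat1-201 to Neat1-201 per kb was 310 ± 29.3 in hippocampus WT, 269 ± 59.7 in hippocampus 5 × FAD, 346 ± 77.5 in cortex WT and 271 ± 27.5 in cortex 5 × FAD (SD, n = 3).

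The log2 ratio of Neat1-201 to Malat1-201 per kb, which needs no scaling between libraries, was -8.05 ± 0.305 in hippocampus 5 × FAD and -8.27 ± 0.139 in hippocampus WT, a difference of 0.22. The exact permutation test, two-sided, gave p = 0.4. In cortex the ratio was -8.08 ± 0.144 in 5 × FAD and -8.41 ± 0.308 in WT, a difference of 0.33 with p = 0.2 by the same exact test. With 3 libraries against 3 this test cannot go below 0.1. Single libraries moved these differences, to 0.16 in cortex without WT replicate 3, and in hippocampus to 0.13 without 5 × FAD replicate 2, 0.14 without 5 × FAD replicate 3 and 0.40 without 5 × FAD replicate 1. Between the regions, with 6 libraries each, the difference was 0.09 (exact permutation p = 0.604), and the smallest p that this design allows is 0.0021645. This test takes the 12 libraries as independent, although each mouse gave both regions. Sign flips over the 6 same-numbered pairs, an exact test that cannot go below 0.03125, gave p = 0.656.

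Nearly all counts of each gene were in its unspliced row. Malat1-201 held 99.9% of the Malat1 counts, and 99.909 to 99.956% in single libraries. Neat1-201 held 97.8% of the Neat1 counts (96.2 to 98.8%), Neat1-202, the short form, 1.84% (0.859 to 3.34%) and Neat1-203 0.369%. These are shares of counts from rows of unlike length. Per kb of row length, the mean shares of Neat1-201, Neat1-202 and Neat1-203 were 83.1, 10.7 and 6.25%. Because nearly all of Neat1-202 is also part of Neat1-201, the share of the short form depends on how shared reads were divided.

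The row of Neat1-201, annotated as the long form, may also hold reads of the short form, so its values are not those of the scaffold alone. It was at 724, 758 and 795 CPM in hippocampus WT and at 819, 1059 and 963 CPM in hippocampus 5 × FAD. In cortex it was at 695, 709 and 516 CPM in WT and at 914, 860 and 739 CPM in 5 × FAD. The groups did not overlap in either region, as for the sum, whose counts are nearly all from this row. Separation in this direction was seen in 7.63% of the rows tested in hippocampus and 6.01% in cortex, and in 0.531% in both. The log2 fold change was 0.32 (SE 0.169, adjusted p = 0.694) in hippocampus and 0.39 (SE 0.178, adjusted p = 0.912) in cortex, by edgeR on single rows.

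Neat1-202 had few counts, 35, 47 and 63 in hippocampus WT, 114, 40 and 72 in hippocampus 5 × FAD, 63, 46 and 60 in cortex WT and 91, 45 and 61 in cortex 5 × FAD. In both regions, replicate 1 of 5 × FAD had the highest value and the groups overlapped. Its log2 fold change was 0.80 (SE 0.463, adjusted p = 0.704 in edgeR) in hippocampus and 0.15 (SE 0.306, adjusted p = 0.967) in cortex. Without hippocampus 5 × FAD replicate 1 the hippocampus value was 0.36. Its share of the Neat1 counts differed by 0.643 percentage points in hippocampus (exact permutation p = 0.6) and by -0.433 in cortex (p = 0.6 by the same exact test). Neat1-203 had 4 to 31 counts per library, and a difference of moderate size was not detectable at this depth.

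Among the spliced Malat1 rows, Malat1-203, at the 5′ end of the gene, was lower in 5 × FAD hippocampus without passing the adjusted test. Its level was 37.2, 27.7 and 35.3 CPM in hippocampus WT and 17.47, 25.4 and 18.03 CPM in hippocampus 5 × FAD, from 70 to 174 counts per library. The groups did not overlap, which in this direction held for 7.96% of the rows tested. The log2 fold change was -0.72 (SE 0.248, interval -1.31 to -0.12, unadjusted p = 0.0248, adjusted p = 0.612 in edgeR).

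In cortex, Malat1-203 was at 14.8, 22.6 and 42.0 CPM in WT and at 8.66, 12.5 and 24.8 CPM in 5 × FAD. These groups overlapped, and the libraries within each were widely spread. The log2 fold change was -0.77 (SE 0.516, interval -2.02 to 0.47, adjusted p = 0.913 in edgeR). Without the female-pattern libraries it was -0.89 in hippocampus (adjusted p = 0.459 in edgeR) and -0.09 in cortex (adjusted p = 0.993), so that the cortex value was much smaller without them. It also moved with single libraries, to -0.30 without cortex WT replicate 3, -0.50 without cortex 5 × FAD replicate 1 and -1.30 without cortex 5 × FAD replicate 3.

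Malat1-202 was at 4.47, 3.45 and 4.86 CPM in cortex WT and at 6.66, 8.0 and 6.37 CPM in cortex 5 × FAD, from 16 to 30 counts. These groups did not overlap (6.01% of rows in this direction). The log2 fold change was 0.72 (SE 0.267, interval 0.08 to 1.37, unadjusted p = 0.0325, adjusted p = 0.912 in edgeR). The same 3 cortex WT libraries were also below hippocampus WT, at 6.42, 5.96 and 11.1 CPM, with a log2 fold change of hippocampus over cortex of 0.87 (SE 0.342, adjusted p = 0.361 in edgeR), where 10.8% of rows were separated in this direction. Without hippocampus WT replicate 3 this value was 0.53. The 2 comparisons share the cortex WT libraries. In hippocampus the genotypes differed by -0.15 (adjusted p = 0.935 in edgeR), and the test of the difference between regions gave -0.89 (SE 0.432, adjusted p = 0.755). Malat1-204 had log2 fold changes of -0.10 in hippocampus and -0.09 in cortex.

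**Figure D4:**
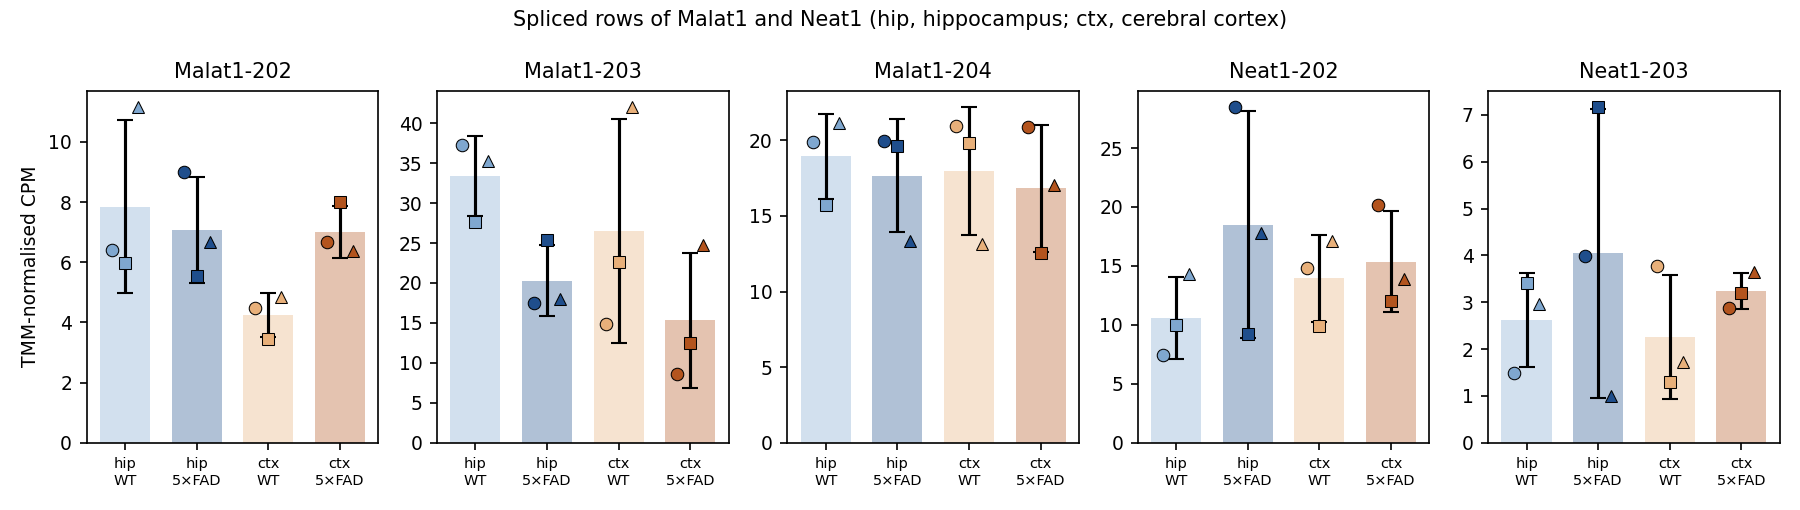
TMM-normalised CPM of the 5 spliced rows is plotted by group, with 1 point per library (circle, square and triangle for replicates 1, 2 and 3), bars for the mean, error bars for the SD (n = 3) and a separate vertical scale in each panel. Malat1-203 lies lower in hippocampus 5 × FAD (17.5 to 25.4 CPM) than in hippocampus WT (27.7 to 37.2 CPM), and Malat1-202 lies lowest in cortex WT (3.45 to 4.86 CPM).

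No tested gene from the lists for proteins of the nuclear bodies that hold these RNAs, or of the machinery that makes their ends, was called between genotypes. Of 20 tested paraspeckle genes, from a list of 32, 10 had a positive log2 fold change in hippocampus. Their median of 0.03 equals the 0.03 of all gene sums. In cortex 13 were positive (median 0.02). Of 28 nuclear speckle genes, from a list of 31, 19 were positive in hippocampus (median 0.17) and 15 in cortex (median 0.04). From a list of 13, 8 genes of RNase P and of the enzymes that trim and finish tRNA-like ends were tested. Of these 8, 6 were positive in hippocampus (median 0.30) and 5 in cortex (median 0.06). Over all gene sums tested, 6018 of 11345 were positive in hippocampus and 5688 of 11409 in cortex. In edgeR 0 genes of these lists were called between genotypes in either region, and DESeq2 called 0. At an unadjusted p under 0.05 in edgeR, 1 paraspeckle gene and 4 nuclear speckle genes were higher in hippocampus 5 × FAD. By the same measure, 1 nuclear speckle gene and 1 end-processing gene were lower in cortex 5 × FAD. Over all gene sums, 985 of 11345 in hippocampus and 762 of 11409 in cortex were under this p, in either direction.

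The table holds mostly non-coding transcripts of these genes, so their values are not those of the mRNAs. Ewsr1, an RNA-binding protein of paraspeckles, had log2 fold changes of -0.19 in hippocampus and 0.01 in cortex. Srrm2, a scaffold of nuclear speckles, was at -0.23 and -0.30, and Srsf11, a splicing factor, at -0.06 and 0.17. For Srrm2, 5 × FAD replicate 2 had 1849 counts in hippocampus and 2052 in cortex. All other libraries had 4905 to 6847, so its values rest on that replicate number. Elac2, the tRNA 3′ end nuclease, was at 0.66 (SE 1.26) and 0.05, and Pop5, a subunit of RNase P, at 0.26 and -0.25. These were among the genes with the most counts in each list.

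Some genes followed the members over the 12 libraries. By Pearson's r of log2 CPM among 6072 genes with a mean of at least 20 CPM, those nearest to Malat1 were Sfpq, an essential paraspeckle protein (r = 0.94), Clk4, a kinase of splicing factors (0.94), and Jmjd1c, a histone demethylase family member (0.93). Within groups, with group means removed, the values were 0.90, 0.87 and 0.87. Those nearest to Neat1 were Aox1, aldehyde oxidase (0.89), Wwc2 (0.88) and Capns1, the small calpain subunit (0.87), with 0.93, 0.69 and 0.75 within groups. Malat1 and Neat1 themselves had r = 0.32. The points share library, depth and the TMM factor, and Malat1 is itself a large share of each library's counts in the table. These values therefore describe the 12 libraries only.

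Sfpq had a log2 fold change of 0.18 between genotypes in hippocampus, 0.11 in cortex and 0.29 between the regions (adjusted p = 0.196 in edgeR). It did not pass any of these tests.

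The genes next to the pair were not called. Within 100 kb, the table held 15 rows of 6 other genes, of which 4 were tested. Dpf2, a chromatin remodelling subunit gene, had the most counts, 177 to 281 per library, with log2 fold changes of 0.13 in hippocampus and 0.04 in cortex. Gm42067 and Sssca1 had 20 to 63 and 22 to 63 counts, Frmd8 15 to 31, and Frmd8os and Gm16538 at most 4.

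The summed markers of oligodendrocytes, the myelinating glia, were separated between genotypes in the same direction as Neat1, which in hippocampus came from a minority of the list. The summed level of the 5 oligodendrocyte markers in the table, out of 10, was 349 to 439 CPM in hippocampus WT and 506 to 592 CPM in hippocampus 5 × FAD. In cortex it was 299.6 to 469 CPM in WT and 539 to 613 CPM in 5 × FAD. Neither region had an overlap, as for Neat1, beside 7.35 and 6.55% of gene sums separated in this direction, and cortex WT replicate 3 was lowest for both. Of the 5, 0 were called in edgeR and DESeq2, and Cnp, a myelin enzyme, had log2 fold changes of 0.71 (adjusted p = 0.526 in edgeR) and 0.56 (adjusted p = 0.739), with 1 of the 5 in hippocampus and 2 of the 5 in cortex under an unadjusted p of 0.05. In hippocampus Cnp had means of 214 CPM in WT and 344 in 5 × FAD, while 3 of the 5 had lower means in 5 × FAD, Mbp (16.2 and 13.5 CPM), Mag (54.5 and 50.5) and Mobp (7.16 and 5.14). In cortex all 5 had positive log2 fold changes. The table had no row for Mog, Mal, Cldn11, Opalin and Ermn. The part of these cells in the Neat1 values was not tested.

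Of the 12 microglia markers, 5 had rows, Trem2, C1qc, Aif1 and Itgax among them, and Csf1r, Cx3cr1, P2ry12 and the rest did not. The 5 summed to 35.7, 32.4 and 42.8 CPM in hippocampus WT and to 183.5, 205 and 50.1 CPM in hippocampus 5 × FAD. In cortex they summed to 60.5, 62.3 and 48.6 CPM in WT and to 249.5, 197 and 27.7 CPM in 5 × FAD. Replicates 1 and 2 of 5 × FAD, the female-pattern libraries, were high, and replicate 3 was near or below WT. Neat1 in 5 × FAD replicate 3 was at 982 CPM in hippocampus, above each WT library, and at 756 CPM in cortex, above the highest WT library at 720 CPM. Trem2, a microglial receptor, had log2 fold changes of 2.38 (adjusted p = 0.464 in edgeR) and 1.65 (adjusted p = 0.747), and DESeq2 called it in hippocampus.

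The 6 astrocyte markers in the table, out of 8, summed to 1488 to 1568 CPM in hippocampus WT and 543 to 1225 CPM in hippocampus 5 × FAD, a separation in the other direction from Neat1 that 9.16% of gene sums showed. Most of this sum was Slc1a3, a glutamate transporter, with means of 1360 and 660 CPM. Slc1a3 was not alone, as 2 of the 5 tested markers were lower at an unadjusted p under 0.05 in edgeR, with 0 called. Of these 5, 2 had a positive log2 fold change. Gja1 (21.9 and 25.6 CPM), Aldh1l1 (4.73 and 4.81) and Gfap (0 and 0.912) were not lower by mean. In cortex they overlapped, at 981 to 1609 and 985 to 1552 CPM. The 3 endothelial markers in the table, out of 5, overlapped as a sum in hippocampus, at 53.7 to 62.2 and 34.2 to 55.2 CPM. Their sum was higher in cortex 5 × FAD, at 73.9 to 80.1 against 59.1 to 73.2 CPM. Such a separation was seen in 6.55% of gene sums there. Of the 3 in cortex, 2 had a positive log2 fold change, and 0 had an unadjusted p under 0.05 in edgeR. The 7 neuronal markers in the table, out of 8, overlapped as a sum in both regions. They were at 1554 to 3460 and 1802 to 7199 CPM in hippocampus and at 1626 to 2840 and 1376 to 3178 CPM in cortex. In hippocampus 5 × FAD, replicate 1 was at 7199 CPM and replicates 2 and 3 at 2012 and 1802. Single markers went both ways in hippocampus, with 1 higher and 1 lower at an unadjusted p under 0.05 in edgeR. In cortex 1 was lower by this measure, and 0 were called in either region. The part of microglia and of these other cells in the Neat1 values was not tested either.

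**Figure D5:**
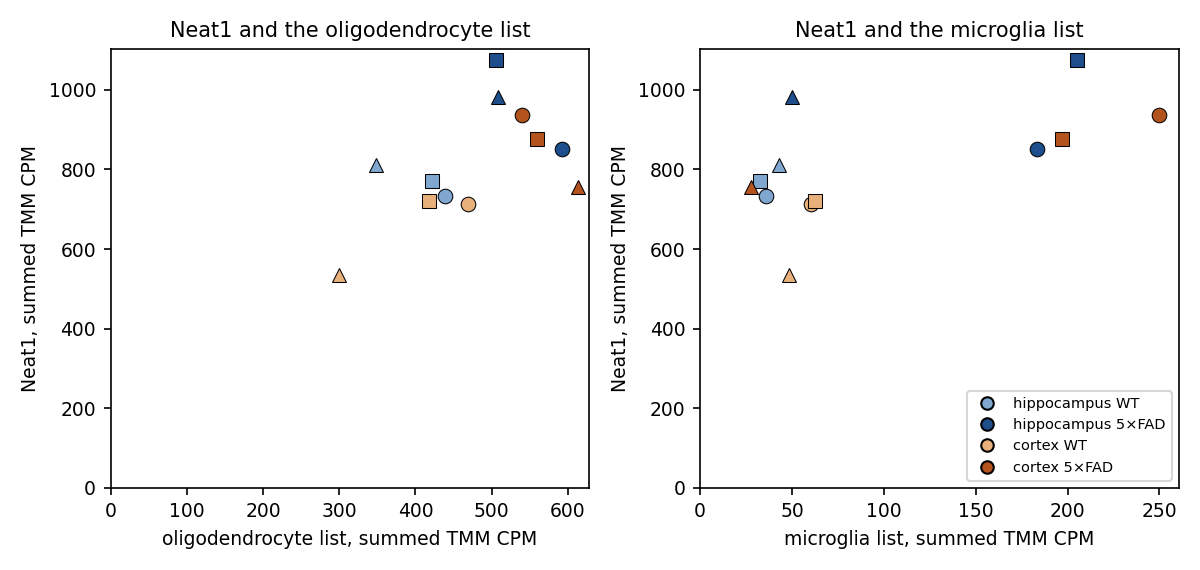
The summed Neat1 rows are plotted against the summed oligodendrocyte markers (left) and microglia markers (right), both axes in TMM-normalised CPM from 0, with 1 point per library, colours for the 4 groups and circle, square and triangle for replicates 1, 2 and 3. On the left the 5 × FAD libraries lie at 506 to 613 CPM and the WT libraries at 299.6 to 469 CPM, whereas on the right the microglia sums of 5 × FAD replicate 3, at 50.1 CPM in hippocampus and 27.7 in cortex, lie far below those of replicates 1 and 2 (183.5 to 249.5 CPM).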

How the data were processed

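By the protocols of the sample labels, total RNA was depleted of ribosomal RNA and made into stranded paired-end libraries. The methods of the paper on this series also name RNase R, used there to remove linear RNA before sequencing for circRNAs. Whether the libraries counted here had that step is not settled by the sources used. Malat1 and Neat1 are linear RNAs, and the part of such a step in their values was not tested. The deposited values are counts for each transcript in 12 libraries, given as whole numbers by the authors and not normalized. Trimmomatic 0.36 and edgeR are named in the submitters' processing notes, whereas the aligner, the counting program, the build and the gene models are not given in the sources used here, and the counts could be rounded estimates. Reads of unspliced Malat1 and Neat1 are shared among their rows, so the counting program can change single rows more than sums. The strand of the library separates these genes from antisense transcripts only if the counting used it. The columns of the table that were not used numbered 0.

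Of 45597 Ensembl rows, 45372 were matched to GENCODE M21 on GRCm38, which gave names, exons and sequences. Mascrna was taken from RefSeq on GRCm38.p6, and Gm27702 from GENCODE M21. The 2436 assembled rows were summed per locus, and their positions were not used, so an overlap with the members was not checked. Counts were summed per gene and tested with edgeR 4.0.16 in R 4.3.3 (filterByExpr, TMM, glmQLFit and glmQLFTest) with Benjamini-Hochberg adjustment over all features tested. Each genotype contrast used the 6 libraries of 1 region, and the region contrasts and the interaction used the libraries they name. The standard error was the size of the log2 fold change divided by the square root of F, and intervals are at 95%. Ratios and shares were compared by exact permutation tests, two-sided, in scipy 1.17.1 under Python 3.11.15 with pandas 2.3.3, and figures were drawn with matplotlib 3.10.9. The fits were tested on simulated data.

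All 7 rows are described by counts and ranges, and those with at least 1% of their gene by values. The 3 genes nearest to each member by correlation were named, and of each list without calls the 2 genes with the most counts, except that the results of some genes are not reported here. Calls below an unadjusted p of 0.05 were named after their values were seen. The members, lists and markers were chosen with earlier results of these data known.

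Alternatives were DESeq2 1.42.0, its size factors in edgeR, library size only, library size without the members, testing without the filter, requiring each library to reach 10 counts, robust estimation, the most counted transcript alone, all 12 libraries in 1 fit, the replicate number as a block, and leaving out each library. Leaving out 5 × FAD replicates 1 and 2 was among them because of earlier results of these data, whereas adding both regions, with the libraries left out of that sum, was chosen after the data were seen.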

Additional observations from a re-analysis of the deposited data

How the results depend on the processing

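No member passed the adjusted threshold of 0.05 under any alternative tried, and the lowest adjusted p of any was 0.111. Of the values that answer a comparison, 343 kept direction and call, 12 changed sign and 1 count moved, and 110 values of other features kept both. The values that changed sign were near 0, and the cause was not tested. Malat1 in hippocampus was -0.0219 on the log2 scale without 5 × FAD replicates 1 and 2. The difference of the genotype effect between regions for Neat1 was 0.00457 by library size only and 0.0116 by library size without the members. With each library left out in turn it ran from -0.14 to 0.0698 for Neat1 and from -0.0385 to 0.12 for Malat1, with the changed signs from hippocampus 5 × FAD replicate 1, cortex WT replicate 3 and, for Neat1, cortex 5 × FAD replicate 1. The share differences ran from -0.0259 to 1.22 percentage points for Neat1-202 in hippocampus, from -0.0897 to 0.893 for Neat1-201 in cortex and from -0.853 to 0.0586 for Neat1-202 in cortex, and the log2 ratio of Neat1 to Malat1 between regions from -0.0182 to 0.14. The number of nuclear speckle features called between regions in WT was 1 in place of 0 on single transcripts, a transcript of Srsf11 higher in hippocampus. The log2 fold change of Neat1 between genotypes ran from 0.27 to 0.44 in hippocampus and from 0.25 to 0.46 in cortex with each library left out.

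Same-numbered libraries did not clearly deviate together: the correlations of their deviations were -0.04 to 0.26 between regions and -0.08 to 0.02 between genotypes, and not every library correlated best with its own number. With the replicate number as a block, the log2 fold change of Neat1 was 0.35 in hippocampus (adjusted p = 0.674 in edgeR) and 0.39 in cortex (adjusted p = 0.891), and that of Malat1 0.12 and 0.06. Between regions the blocked values were 0.13 for Malat1 and 0.21 for Neat1, and the block changed no call of a member. Depth limits the spliced rows most, with 4 to 174 counts per library. The libraries numbered 3 per group, and sex and genotype differ together in part of them.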
